A study of Mus musculus with 284 samples.

Results

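The 10 keratins described here are the suprabasal keratins Krt1 and Krt10, the mucosal keratins Krt4 and Krt13, the simple-epithelial keratins Krt7, Krt8, Krt18, Krt19 and Krt20, and Krt79, a keratin of the hair follicle opening. They were taken by name from the 53 protein-coding keratin genes of the table, which lists 54247 gene IDs in all. They were measured in 284 single tumour propagating cells, the cells of a tumour that can start a new one, sorted from skin tumours of 4 mice. KO1 (73 cells) and KO3 (54 cells) carry the label Sirt6-/-, and WT1 (69 cells) and WT2 (88 cells) carry the label wild type. All 4 mice were of strain C57BL/6 and carried ROSA26-LSL-eYFP and Keratin14-Cre, so that YFP marks cells of the Krt14 lineage. All had one dose of the carcinogen DMBA at 8 weeks of age and were then treated repeatedly with TPA, which promotes tumour growth, for over 20 weeks. Cells were sorted on CD34, CD49f and YFP, and full-length libraries were made by a modified Smart-seq2 protocol. The study's title asks about a glycolytic subset of these cells in squamous cell carcinoma, and no question about keratins is stated in the labels.

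Some limits of the groups apply to every result. Each genotype label has 2 mice, cells of a mouse are not replicates, and how many tumours a mouse gave is not in the labels. The cells passed a gate on CD34 and CD49f, so tumour cells outside it were not sampled. No plate held cells of both genotype labels, so plate and genotype cannot be told apart. Sirt6 itself was measured at 26.34 and 14.49 TMM-scaled CPM (counts per 1000000 counts of a mouse's summed cells) in KO1 and KO3, against 16.37 and 26.37 in WT1 and WT2. The 2 groups overlapped, which goes against the label, and a count per gene cannot check a partial deletion. The mice are therefore named by their labels throughout. Total counts per cell ran between 523999 and 1684464, with 3235 to 8470 genes detected. At least 2 of 6 basal keratinocyte markers had a count in 284 of 284 cells, while the same was true of fibroblast markers in 0 cells, endothelial markers in 1, melanocyte markers in 0 and immune markers in 3. For Merkel cell markers it was true in 4 cells, for sebocyte markers in 41, and for hair shaft and inner root sheath markers in 6.

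Keratins are the intermediate filament proteins of epithelial cells, and a filament needs a type I and a type II keratin in equal amounts. Basal epidermal cells make Krt5 and Krt14. As a cell leaves the basal layer it turns to Krt1 and Krt10, while oral and oesophageal epithelia turn to Krt4 and Krt13, and one-layered epithelia use Krt8 and Krt18 with Krt7, Krt19 or Krt20. In mouse skin carcinogenesis, loss of Krt1 and Krt10 and gain of Krt13, and of Krt8 and Krt18 in advanced tumours, are known as marks of progression.

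The type I genes lay in one cluster on chromosome 11, which holds 27 keratin genes and 4 of the members (Krt10, Krt20, Krt13 and Krt19). The type II genes lay on chromosome 15 with 26 keratin genes and 6 of the members: Krt7, Krt1, Krt4, Krt79, Krt8 and, next to its partner Krt8 although of type I, Krt18. Krt8 and Krt18 start 23698 bases apart, facing away from each other. The RefSeq promoter table of GRCm38.p6, which gives 250 bases before and 50 bases after a gene's start, held 7 of the 10 members, and Krt1, Krt4 and Krt19 are not among them. The promoters of 4 members are shown because the results turn on their genes: Krt10 was the member found in most cells, Krt13 was found in bright single cells, and Krt8 and Krt18 are neighbours and filament partners of which Krt18 was found in 14 cells and Krt8 in 1. They lie at chr11:99389315-99389614 (minus strand, Krt10), chr11:100121517-100121816 (minus strand, Krt13), chr15:102004293-102004592 (minus strand, Krt8) and chr15:102027966-102028265 (plus strand, Krt18), and each is written 5′ to 3′ along its gene.
Krt10: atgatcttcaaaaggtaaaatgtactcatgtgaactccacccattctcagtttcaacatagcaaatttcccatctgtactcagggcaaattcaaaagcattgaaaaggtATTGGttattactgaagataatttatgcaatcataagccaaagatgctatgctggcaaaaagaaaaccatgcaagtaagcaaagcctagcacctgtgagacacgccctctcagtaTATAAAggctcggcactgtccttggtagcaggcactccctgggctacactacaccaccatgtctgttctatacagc
Krt13: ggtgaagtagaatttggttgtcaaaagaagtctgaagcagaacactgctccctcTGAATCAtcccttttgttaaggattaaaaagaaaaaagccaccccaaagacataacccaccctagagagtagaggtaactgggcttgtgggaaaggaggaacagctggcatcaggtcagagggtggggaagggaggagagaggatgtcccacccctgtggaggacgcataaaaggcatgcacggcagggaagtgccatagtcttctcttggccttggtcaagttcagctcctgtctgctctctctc
Krt8: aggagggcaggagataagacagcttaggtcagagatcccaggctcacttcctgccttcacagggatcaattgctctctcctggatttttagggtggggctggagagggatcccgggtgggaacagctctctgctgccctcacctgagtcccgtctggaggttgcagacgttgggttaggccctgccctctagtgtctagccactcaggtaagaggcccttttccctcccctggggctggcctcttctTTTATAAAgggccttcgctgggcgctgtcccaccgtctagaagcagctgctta
Krt18: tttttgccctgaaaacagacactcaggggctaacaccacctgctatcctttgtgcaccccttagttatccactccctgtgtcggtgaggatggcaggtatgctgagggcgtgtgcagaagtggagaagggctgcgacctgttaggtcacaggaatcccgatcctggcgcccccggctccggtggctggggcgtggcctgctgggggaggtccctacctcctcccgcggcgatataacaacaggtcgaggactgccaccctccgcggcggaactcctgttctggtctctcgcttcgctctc
Capitals mark matches on either strand to TATAAA (the TATA box), to CCAAT (the CCAAT box), to GGGCGG (the GC box) and to TGANTCA (the AP-1 element); the capital run in Krt8 is 2 overlapping TATAAA matches, 1 on each strand. Krt10 held TATAAA and a CCAAT on the opposite strand, Krt13 held TGANTCA, and Krt18 held none of the motifs. Among all 32851 promoters of the table, 13.6% held TATAAA, 37.4% CCAAT, 35.7% GGGCGG and 7.81% TGANTCA. The matches are descriptions of these letters only.

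As a whole the members were a small part of the keratin transcripts of these cells. They took 0.692% and 1.12% of all keratin counts in KO1 and KO3, against 0.734% and 3.43% in WT1 and WT2. The 7 basal and wound keratins took 98.9% and 98.7% in KO1 and KO3, and 98.7% and 96.1% in WT1 and WT2. Keratins over 5% of a mouse's keratin counts were Krt14, Krt5, Krt17, Krt6a, Krt16 and Krt6b. The mean share of the members was 0.905% ± 0.301 in mice labelled Sirt6-/- and 2.08% ± 1.91 in wild-type mice (SD, n = 2 each). The difference of -1.18 percentage points was smaller than the spread between the wild-type mice, with a two-sided exact permutation p of 0.667, where 2 mice against 2 cannot go below 0.33. WT2 alone was high, and without it the difference was 0.170 percentage points. The median cell held 0.0432% and 0.225% in KO1 and KO3, against 0.0504% and 0 in WT1 and WT2. The share of the highest cell was 4.50% and 12.5% in KO1 and KO3, and 22.7% and 59.0% in WT1 and WT2. The sums thus rested on few cells: 0 and 3 cells of KO1 and KO3, and 2 and 11 cells of WT1 and WT2, held more than 5% of their keratin counts in these 10 genes, and 2 cells, both of WT2, held more than 50%.

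Levels between genes were compared per kilobase of each gene's longest protein-coding transcript. In this measure the order over the 4 mice was Krt1, Krt10, Krt13, Krt79, Krt18, Krt4, Krt20, Krt19, Krt8 and Krt7. Krt1 had a level of 179 ± 176 CPM per kilobase and Krt10 of 98.6 ± 114 (SD over 4 mice). Krt13 followed at a level of 21.1 ± 16.4 CPM per kilobase, Krt79 at 5.40 ± 6.07, Krt18 at 3.09 ± 3.44 and Krt4 at 1.79 ± 1.60. The lowest 4 members had mean levels between 0.0854 and 0.593 CPM per kilobase. Every neighbouring pair in this order had overlapping ranges over the mice. Within each mouse, however, Krt1 was above Krt10. The Krt1 level was 66.2 and 122 CPM per kilobase in KO1 and KO3, beside 13.9 and 79.2 for Krt10. In WT1 and WT2 it was 86.1 and 440.4, beside 36.2 and 265. Krt13 was likewise above Krt79 in each mouse, while every other neighbouring pair was turned round in some mouse. Krt14, the most abundant keratin, had levels of 12013 and 15598 CPM per kilobase in KO1 and KO3, and 13507 and 18566 in WT1 and WT2, above the highest level of any member, 440.4 in WT2 for Krt1.

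**Figure D1:**
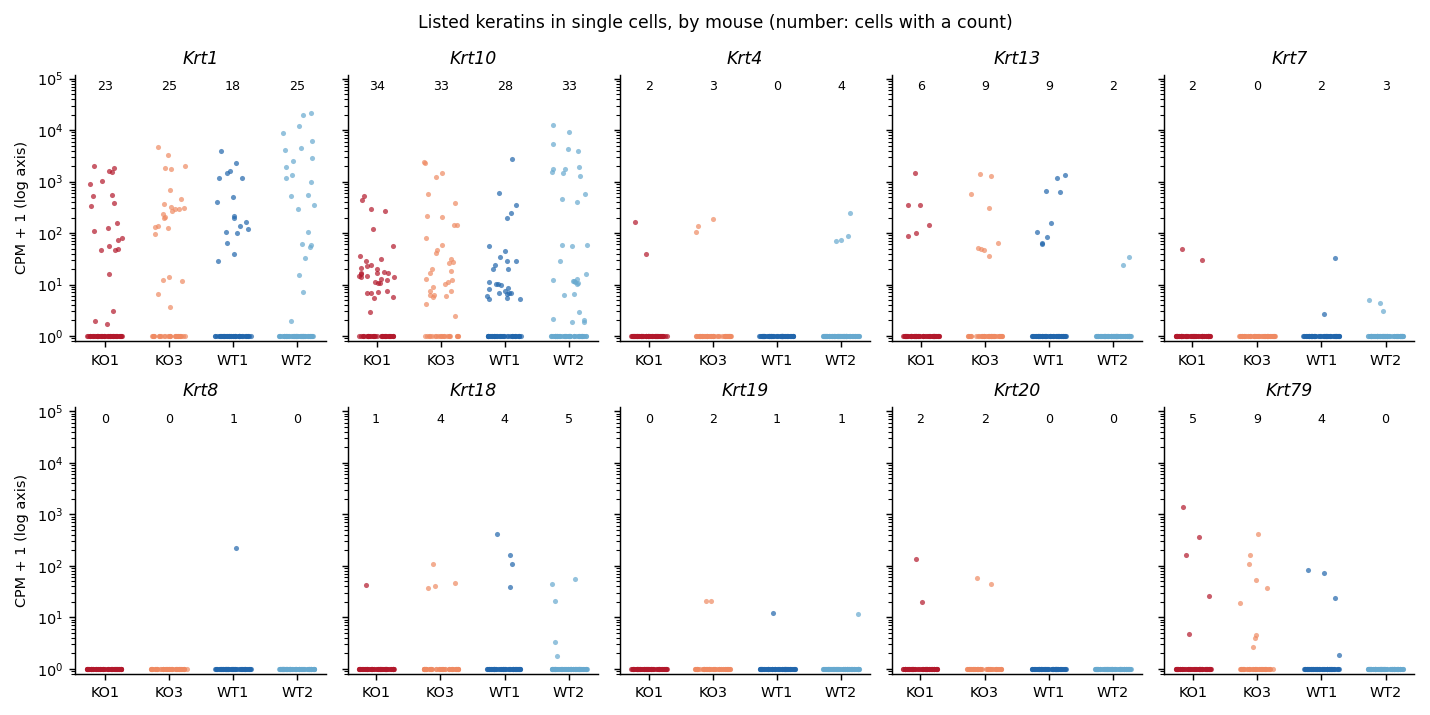
Each point is 1 cell, in CPM + 1 on a log axis, with a panel for each keratin and a column for each mouse (KO1 and KO3 labelled Sirt6-/-, WT1 and WT2 wild type). Numbers above the columns count the cells with any count. The highest cells of Krt1 and Krt10 have 2043 and 532 CPM in KO1 and 21918 and 12626 CPM in WT2, while Krt8 has 1 cell.

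Krt1, the type II keratin of the suprabasal epidermis, had a count in 91 of 284 cells (32.0%, exact Clopper-Pearson 95% interval 26.7 to 37.8%). These intervals cover the sampling of cells only. Over all 284 cells they pool the mice and leave out the spread between them. The shares of KO3 and WT1 given below lay outside this one. The protocol counts reads, which are not independent molecules. Its level was 162.63 and 298.97 TMM-scaled CPM in KO1 and KO3, against 211.49 and 1081.28 in WT1 and WT2. WT2 stood above the other 3 mice, and WT1 lay between the 2 mice labelled Sirt6-/-. The log2 difference (Sirt6-/- minus wild type) was -1.49 with an SE of 0.84 and did not pass edgeR's quasi-likelihood test with Benjamini-Hochberg adjustment (adjusted p = 0.965). Without WT2 the log2 difference was 0.13. Cells with a count made up 31.5% and 46.3% in KO1 and KO3, against 26.1% and 28.4% in WT1 and WT2. In cells with a count the median level was 126 and 270.2 CPM in KO1 and KO3, and 203 and 995 CPM in WT1 and WT2. So the share of Krt1 cells in WT2 lay within the range of the other mice, while its cells reached higher levels: 12 of its cells had at least 1000 CPM, against 5, 5 and 6 in KO1, KO3 and WT1. The 5 highest Krt1 cells of the whole set were all WT2 cells of plate 4, with 21918 CPM in the first and 6184 CPM in the fifth.

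Krt10, the type I partner of Krt1, was the member found in most cells, 128 of 284 (45.1%, 39.2 to 51.1%). Its level was 29.01 and 165.77 TMM-scaled CPM in KO1 and KO3, against 75.89 and 555.04 in WT1 and WT2. WT2 was again the highest mouse, and the groups overlapped. The log2 difference was -1.70 with an SE of 1.24 (edgeR's quasi-likelihood test, Benjamini-Hochberg adjusted p = 0.970), and 0.36 without WT2. The share of cells with a count was 46.6% and 61.1% in KO1 and KO3, against 40.6% and 37.5% in WT1 and WT2. The shares of KO3 and WT2 lay outside the interval over all cells. Many of these cells held few reads: with at least 10 counts the shares were 34.2% and 46.3% in KO1 and KO3, and 26.1% and 28.4% in WT1 and WT2. The median level in cells with a count was 15.1 and 25.6 CPM in KO1 and KO3, against 9.76 and 56.1 CPM in WT1 and WT2. In WT1, 1 cell held 69.6% of the mouse's Krt10 counts. The antisense gene Gm11940 overlaps Krt10 and had 23.0 counts in all, beside 68524 for Krt10, whose values were all whole numbers. No strand setting of the counting is stated in the labels, and a sharing of reads between the pair was not tested.

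For both suprabasal keratins the share of cells and the summed level pointed to opposite sides. The mean share of Krt1 cells was 38.9% ± 10.5 in mice labelled Sirt6-/- and 27.2% ± 1.64 in wild-type mice (SD, n = 2 each; difference 11.7 percentage points, two-sided exact permutation p = 0.33, the smallest the design allows). The mean share of Krt10 cells was 53.8% ± 10.3 in mice labelled Sirt6-/- and 39.0% ± 2.18 in wild-type mice (difference 14.8 percentage points, exact permutation p = 0.33). Both mice labelled Sirt6-/- were above both wild-type mice in each share, also with every cell thinned to 500000 counts and with a threshold of 10 counts. That pattern held for 4 of the 10 members (Krt1, Krt10, Krt20 and Krt79), and for 15.4% of all 16567 genes tested. The opposite pattern held for 1 member, Krt7, against 13.8% of all genes, and was lost for it with a threshold of 10 counts. The opposite side of the summed levels rested on WT2. Without WT2 the log2 differences were 0.13 for Krt1 and 0.36 for Krt10, on the side of the shares. With the mean log2 value per cell they were 0.50 and 0.53. With 2 mice per label and the pattern in 15.4% of all genes, no order of the genotype labels is read from these shares.

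**Figure D2:**
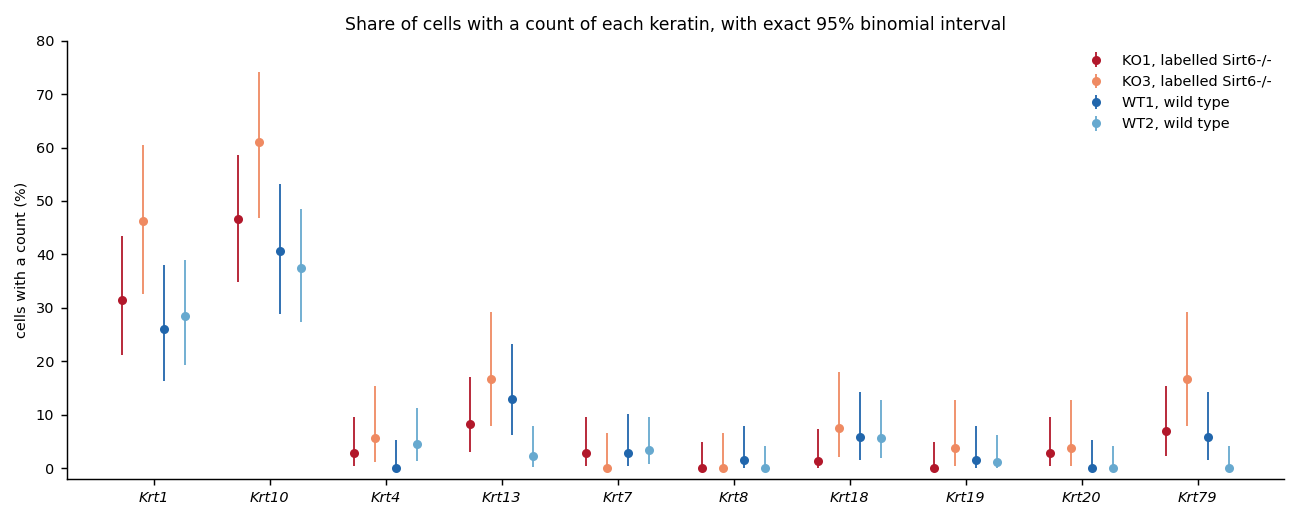
The share of cells with a count, in percent, is drawn for each keratin and mouse with its exact 95% binomial interval. The interval covers the sampling of cells within a mouse only. KO3 has the highest share for Krt1 (46.3%) and Krt10 (61.1%), and the intervals of most mice overlap within a gene.

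Krt13, the type I keratin of mucosal epithelia and a known early marker of papilloma progression in mouse skin, had a count in 26 of 284 cells (9.15%). Its level was 27.73 and 62.87 TMM-scaled CPM in KO1 and KO3, against 48.69 and 0.54 in WT1 and WT2. WT2 was far below the other 3 mice, which overlapped. The log2 difference was 0.88 with an SE of 1.76 (edgeR's quasi-likelihood test, Benjamini-Hochberg adjusted p = 0.999), and -0.10 without WT2. Cells with Krt13 made up 8.22% and 16.7% in KO1 and KO3, against 13.0% and 2.27% in WT1 and WT2. All 26 cells had at least 10 counts. The highest cells had 1448 CPM in KO1, 1410.5 in KO3 and 1357 in WT1, against 32.9 in WT2. Thus the mouse with the highest Krt1 and Krt10 sums was the one with the lowest Krt13 sum.

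Krt4, the type II mucosal partner of Krt13, was found in 9 cells (3.17%). Its level was 2.62 and 8.07 TMM-scaled CPM in KO1 and KO3, against 0 and 4.54 in WT1 and WT2. In WT1 it was in 0 of 69 cells, which allows a share of up to 4.35% by a floor of 3 cells, while the exact 95% interval reaches 5.21%. The groups overlapped, and the log2 difference was 1.23 with an SE of 2.37 (edgeR's quasi-likelihood test, Benjamini-Hochberg adjusted p = 0.999). It was 0.25 without WT1 and 0.20 without KO3, and 4.49 with limma-voom; without WT2 the wild-type level was 0. Its highest cell, with 243 CPM, was a WT2 cell that was also among the 5 highest for Krt1 and Krt10. The mucosal pair was unequal per length: the Krt13 level was 16.8 and 38.0 CPM per kilobase in KO1 and KO3 beside 1.23 and 3.79 for Krt4. In WT1 the Krt13 level was 29.4 CPM per kilobase and that of Krt4 was 0. In WT2 the order was turned round, with a Krt13 level of 0.328 CPM per kilobase and a Krt4 level of 2.13.

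Krt79, a type II keratin that marks cells of the hair follicle canal and sebaceous duct in mice, was found in 18 cells (6.34%). Its level was 27.20 and 15.83 TMM-scaled CPM in KO1 and KO3, against 2.21 and 0 in WT1 and WT2. Both mice labelled Sirt6-/- were above both wild-type mice. The log2 difference was 4.28 with an SE of 2.13 and did not pass edgeR's quasi-likelihood test with Benjamini-Hochberg adjustment (adjusted p = 0.965). Without WT1 the wild-type level was 0, and the fitted log2 difference of 13.74 is then no bound. The share of cells was 6.85% and 16.7% in KO1 and KO3, against 5.80% in WT1 and 0 of 88 cells in WT2, which allows up to 3.41% by the floor of 3 cells and 4.11% by the exact interval. In KO1, 1 cell with 1368 CPM held 73.9% of the mouse's Krt79 counts. In KO3, 1 cell with 416 CPM held 53.3%.

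The simple-epithelial keratins were rare. At least 1 of the 5 had a count in 29 of 284 cells, which were 4 and 8 cells of KO1 and KO3, and 8 and 9 cells of WT1 and WT2. In 1 of these cells, of KO1, there were 2 of them (Krt18 and Krt20).

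Krt18, the type I partner of Krt8, was the most frequent of them, with 14 cells (4.93%). Its level was 0.44 and 4.48 TMM-scaled CPM in KO1 and KO3, against 11.41 and 1.46 in WT1 and WT2. WT1 was highest and KO1 lowest, with KO3 and WT2 between them. The log2 difference was -1.39 with an SE of 1.51 (edgeR's quasi-likelihood test, Benjamini-Hochberg adjusted p = 0.985), and 0.77 without WT1. The highest cell, of WT1, had 406 CPM and held 62.4% of that mouse's Krt18 counts. Krt8 itself, the type II partner, was found in 1 cell of 284 (0.352%), a WT1 cell with 118 counts or 222 CPM. That value was not a whole number before rounding, as an estimate that shares reads between similar sequences gives, and is uncertain. The cell was also poor, with 3743 detected genes and 530022 counts. The other WT1 cells had medians of 7012 genes and 1159281 counts. Krt8 was in 0 of 73 cells of KO1 and 0 of 54 cells of KO3, for which the exact intervals reach 4.93% and 6.60% (4.11% and 5.56% by the floor of 3 cells). In WT2 it was in 0 of 88 cells, for which the exact interval reaches 4.11% (3.41% by the floor). Krt8 did not pass the filter on low counts, and the groups overlapped at 0. After scaling, the 118 counts of wild-type mice were 35.3-fold above a floor of 3 counts over the group labelled Sirt6-/-. They came from 1 cell of WT1, so the ratio is no lower bound on a difference between the labels.

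Krt20, a keratin of intestinal and urothelial surface cells and, in skin, of Merkel cells, was found in 4 cells, 2 of KO1 and 2 of KO3. Its level was 2.58 and 1.99 TMM-scaled CPM in KO1 and KO3, against 0 in both WT1 and WT2. The groups did not overlap. The 348 counts of the mice labelled Sirt6-/- were 129-fold above a floor of 3 counts over the wild-type group. These reads came from 4 cells, 199 of them from 1 cell of KO1. The ratio is therefore no lower bound on a difference between the labels. The unadjusted p of edgeR's quasi-likelihood test was 0.00410 and its Benjamini-Hochberg adjusted p was 0.809, so Krt20 was not called, while DESeq2's adjusted p was 0.000980. In the other alternatives the adjusted p lay between 0.704 and 1.000. The 4 cells had between 18.9 and 132 CPM. Its share of cells was 2.74% and 3.70% in KO1 and KO3, while 0 cells in WT1 and WT2 allow up to 4.35% and 3.41% by the floor of 3 cells, and 5.21% and 4.11% by the exact intervals.

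Krt7, a type II keratin of ducts and glands, was in 7 cells (2.46%), at 0.96 and 0 TMM-scaled CPM in KO1 and KO3, against 0.33 and 0.11 in WT1 and WT2. Its log2 difference was 1.11 with an SE of 2.29 (edgeR's quasi-likelihood test, Benjamini-Hochberg adjusted p = 0.999), and turned negative with limma-voom (-0.91), with the mean log2 value per cell (-0.01) and without KO1, which left KO3 at 0. Krt19, a type I keratin that pairs with several partners and marks hair follicle stem cells, was in 4 cells (1.41%), at 0 and 0.86 TMM-scaled CPM in KO1 and KO3, against 0.19 and 0.16 in WT1 and WT2. Its log2 difference was 1.29 with an SE of 2.28 (edgeR's quasi-likelihood test, Benjamini-Hochberg adjusted p = 0.999), and turned negative with limma-voom (-1.60) and without KO3, which left KO1 at 0. For both genes the groups overlapped, and no cell exceeded 48.8 CPM of Krt7 or 19.5 CPM of Krt19.

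Markers of Merkel cells, the touch cells of the epidermis that make Krt8, Krt18 and Krt20, were low. Of 10 markers, Atoh1, Chga, Chgb and Cck were at 0 in all cells, and the summed level of the list was 3.72 and 3.92 CPM in KO1 and KO3, against 7.38 and 4.37 in WT1 and WT2. Sox2, which is also made outside Merkel cells, had a count in 27 cells (9.51%), among them 4 of the 14 Krt18 cells and 1 of the 4 Krt20 cells. At least 1 Merkel marker had a count in 40 cells and at least 2 in 4 cells. Of the sebocyte markers, 2 of 8 were at 0 (Awat1 and Dgat2l6), and the summed level was 157 and 103 CPM in KO1 and KO3, against 159 and 120.5 in WT1 and WT2, most of it Scd1. At least 2 sebocyte markers had a count in 41 cells, with Scd1 in 226 cells and Soat1 in 36. Of the hair shaft and inner root sheath markers 3 of 10 were at 0, and the summed level was 19.4 and 13.9 CPM in KO1 and KO3, against 14.7 and 25.8 in WT1 and WT2. Immune markers had a summed level of 1.32 and 0.558 CPM in KO1 and KO3, against 0.0389 and 20.1 in WT1 and WT2, with Cd3e at 0 and most of the WT2 level from Lyz2 (16.9 CPM). WT2 was thus apart in this list as in Krt1, Krt10 and Krt13, and the part of such cells in its keratin levels was not tested.

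Over all members, 9 of 10 passed the filter on low counts. The 9 are those with enough reads in at least 2 mice, so their counts describe that subset. None of the 9 was called at an adjusted p under 0.05 by edgeR's quasi-likelihood test, which called 0% of the 16567 genes tested. At an unadjusted p under 0.05 edgeR had 1 member (Krt20), against 5.12% of all genes. DESeq2 called 1 member (Krt20), which was higher in mice labelled Sirt6-/-, against 0.911% of 16245 genes called in either direction and 0.215% called higher. limma-voom called 0 members and 0 of all genes. In summed level, 2 members (Krt20 and Krt79) had both mice labelled Sirt6-/- above both wild-type mice, a pattern of 17.0% of all genes, and 0 members had both below, against 18.7%. The log2 difference was positive for 6 members and negative for 3, with a median of 1.11, beside a median of -0.01 over all genes. The median was the same with Krt20 set against the floor of 3 counts. With 4 mice and a common coefficient of variation of 0.723 between mice, the single members' SEs ran from 0.84 to 2.37.

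**Figure D3:**
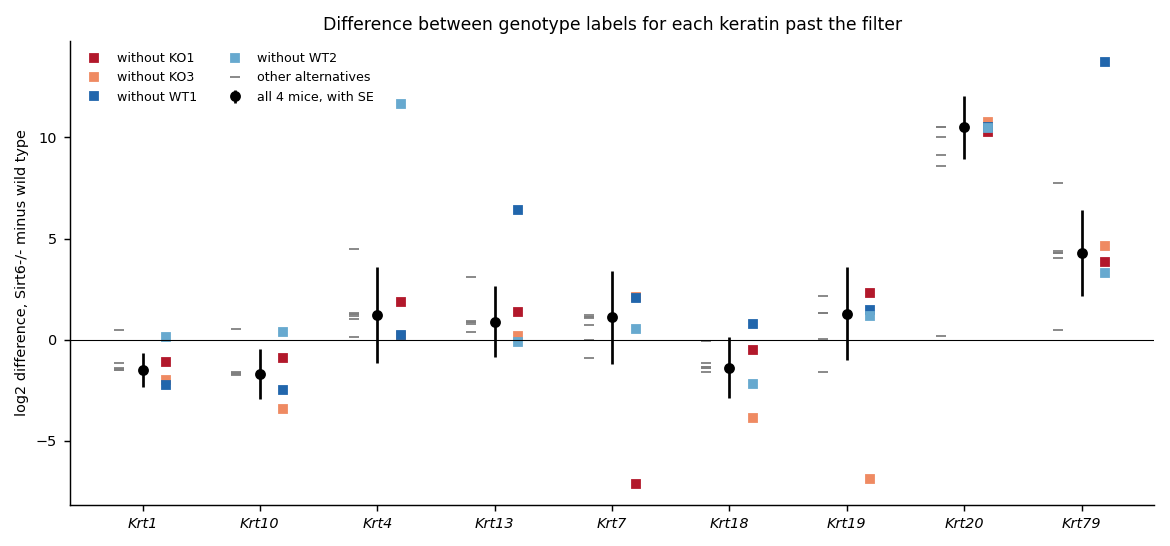
The log2 difference (Sirt6-/- minus wild type) is drawn for the 9 keratins past the filter. Black points give the fit of all 4 mice with its SE, coloured squares the fits without 1 mouse, and grey dashes the other settings. Krt1 and Krt10 cross 0 without WT2, to 0.13 and 0.36, and fits in which a group has no counts (Krt20 throughout, Krt79 without WT1, Krt4 without WT2, Krt7 without KO1, Krt19 without KO3) give values that are neither sizes nor bounds.

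Within single cells Krt1 and Krt10 were found together. Both had counts in 66 cells, Krt1 alone in 25, Krt10 alone in 62 and neither in 131. If detection of one did not depend on the other within a mouse, 42.7 cells would hold both, a ratio of 1.55. By mouse, both were found in 13 and 21 cells of KO1 and KO3, where 10.7 and 15.3 would follow from independent detection, and in 11 and 21 cells of WT1 and WT2, where 7.30 and 9.38 would follow. Every mouse was above its own value, and without WT2 the ratio was 1.35 (45 cells against 33.3). Detected genes per cell were somewhat higher in cells with Krt1 (medians of 6700.0 and 6617 in KO1 and KO3, 7138 and 6242 in WT1 and WT2) than in cells without it (6038 and 6571, 6828 and 5565), and the part of this in the ratio was not tested.

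Pooled over the mice, the pair was closest at high levels. All 16 cells with at least 1000 CPM of Krt10 had Krt1. By mouse, these were 0 and 4 cells of KO1 and KO3, and 1 and 11 cells of WT1 and WT2. Of 28 cells with at least 1000 CPM of Krt1, 25 had Krt10. In KO1 and WT1 the pattern was weaker: KO1 cells with 1042 and 1825 CPM of Krt1 had 0 CPM of Krt10. The same was true of a WT1 cell with 1486 CPM of Krt1. A KO1 cell with 1559 CPM of Krt1 had 1.98 CPM of Krt10. WT1 cells with 1150.1 and 1157 CPM of Krt1 had 4.99 and 9.40 CPM of Krt10. Among cells with Krt10, the median Krt10 level was 16.5 and 78.7 CPM with Krt1 in KO1 and KO3, beside 13.8 and 10.8 CPM without Krt1. In WT1 and WT2 it was 43.6 and 1296 CPM with Krt1, beside 8.93 and 9.96 CPM without. The 5 highest Krt1 cells and the 5 highest Krt10 cells were the same 5 WT2 cells. After removal of the trends on total counts and detected genes, Pearson's r between log2(CPM + 1) of Krt1 and Krt10 was 0.24 and 0.74 in KO1 and KO3, and 0.57 and 0.87 in WT1 and WT2. The cells of a mouse share its plate and sort, so r describes these cells and has no p.

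**Figure D4:**
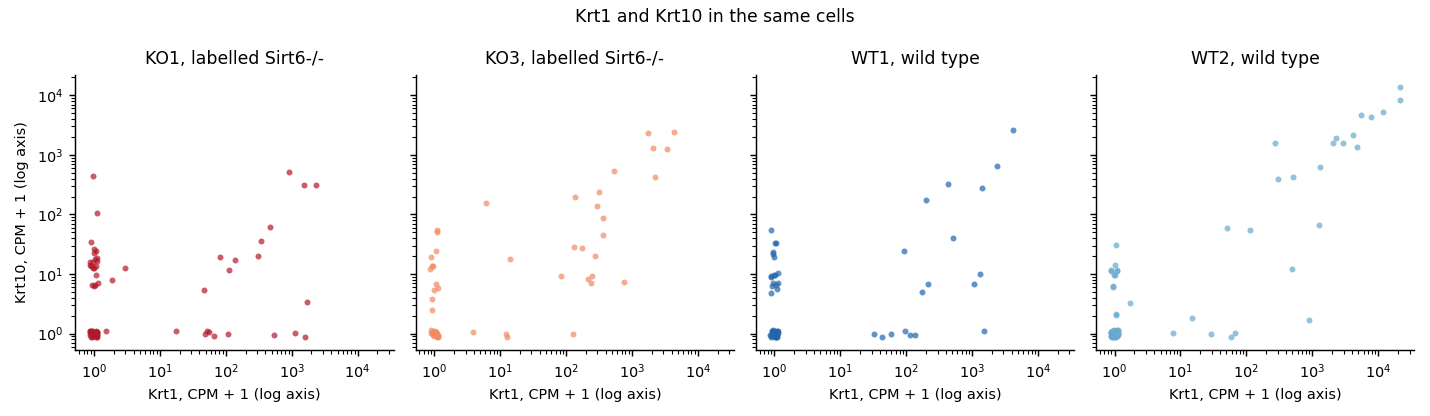
Krt1 (horizontal) is drawn against Krt10 (vertical) for every cell of each mouse, in CPM + 1 on log axes. Points are moved by a small random amount. Cells at least at 1000 CPM of Krt10 all have Krt1, and cells with Krt10 but no Krt1 stand in a column at the left of each panel.

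The mucosal pair shared cells as well. Of 9 Krt4 cells, 6 had Krt13, where 0.755 would follow from independent detection, with 2 such cells in each of KO1, KO3 and WT2 (0.164, 0.500 and 0.0909 from independent detection). Krt4 cells also had Krt1 in 8 of 9 cases, where 3.16 would follow. Krt13 and Krt1 shared 11 cells beside 8.97, and Krt13 and Krt10 shared 11 beside 12.7. Krt18 and Krt1 shared 1 cell beside 4.63, and no mouse was above its own value. Krt18 and its partner Krt8 shared 0 cells beside 0.0580, so with 1 Krt8 cell the pair could not be assessed. Krt19 and Krt79 shared 2 cells, both of KO3, beside 0.391. These counts are small, and no test was made on cells. Per cell, 105 cells had none of the 10 members, 82 had 1, 76 had 2, 16 had 3 and 5 had 4.

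Among the members, Krt1 and Krt10 alone were found in 20% or more of each mouse's cells, and they were set against the 8474 genes that met this limit. The genes most like Krt1 within mice were Perp, a desmosomal membrane protein of stratified epithelia (mean r over the 4 mice 0.62), Krt10 (0.61) and Calm4, a calmodulin-like protein of differentiating epidermis (0.58). Those most like Krt10 were Krt1 (0.61), Perp (0.50) and Zfp750, a transcription factor of epidermal differentiation (0.45). Of the suprabasal and cornification list, 7 of 16 genes could be set beside Krt1, and 7 of 7 had a positive mean r, with a median of 0.37, beside 0.00 over all genes. The 7 basal and wound keratins were mixed, with 3 positive and a median mean r to Krt1 of -0.07. Among them, Krt15 had -0.37, Krt5 -0.36 (-0.01 in KO1 and -0.61 in WT2) and Krt14 -0.07 (0.41 in KO1 and -0.48 in WT2). Krt16, which is made in wounded and hyperproliferative epidermis, had 0.36. At the low end stood Col17a1, Itga3 and Itgb4, with mean r to Krt1 of -0.62, -0.57 and -0.57 and to Krt10 of -0.54, -0.46 and -0.52. These 3 encode parts of the attachment of basal cells to the basement membrane and are named after their values were seen.

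The summed level of Itga6, Itgb4 and Col17a1, the hemidesmosome genes of the basal marker list, was therefore set beside the members, as a set chosen after those values were seen. Itga6 encodes CD49f, on which the cells were sorted. In cells with Krt1 the median sum was 598 and 298 CPM in KO1 and KO3, beside 2427 and 2184 CPM in cells without Krt1. In WT1 and WT2 it was 997 and 1518 CPM with Krt1, beside 3098 and 5426 CPM without. Cells with Krt1 were thus lower in 4 of 4 mice, which follows in part from the choice of Col17a1 and Itgb4 by their low r to Krt1. Cells with Krt13 had 187 and 353 CPM in KO1 and KO3 and 815 CPM in WT1, beside 2040.4, 1351 and 2868 CPM in cells without it. Cells with Krt18 were lower in 2 of the 3 mice with at least 3 such cells, WT1 and WT2, and in KO3 they had 2044 CPM beside 935 without.

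The 16-gene suprabasal and cornification list had a higher median sum in cells with Krt1 in 4 of 4 mice, with 4106 and 7839 CPM in KO1 and KO3 beside 1611 and 3019.8 without Krt1, and 3306 and 4692 CPM in WT1 and WT2 beside 1637 and 1658 without. In cells with Krt13 it was 9438 and 8034 CPM in KO1 and KO3 and 6673 CPM in WT1, beside 2159, 3652 and 1969 without. In cells with Krt10 it was higher in 3 of 4 mice, and in cells with Krt18 in 0 of 3. So the Krt1 cells and Krt13 cells had a higher sum of this list than cells without them, which held it as well. The Krt18 cells had no higher sum than the rest. The sum does not show which transcripts of the list a cell held. All these cells still held basal keratins: the 7 basal and wound keratins summed to medians of 49809.6 and 46901 CPM in Krt1 cells of KO1 and KO3, and 46949 and 38036 CPM in those of WT1 and WT2.

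**Figure D5:**
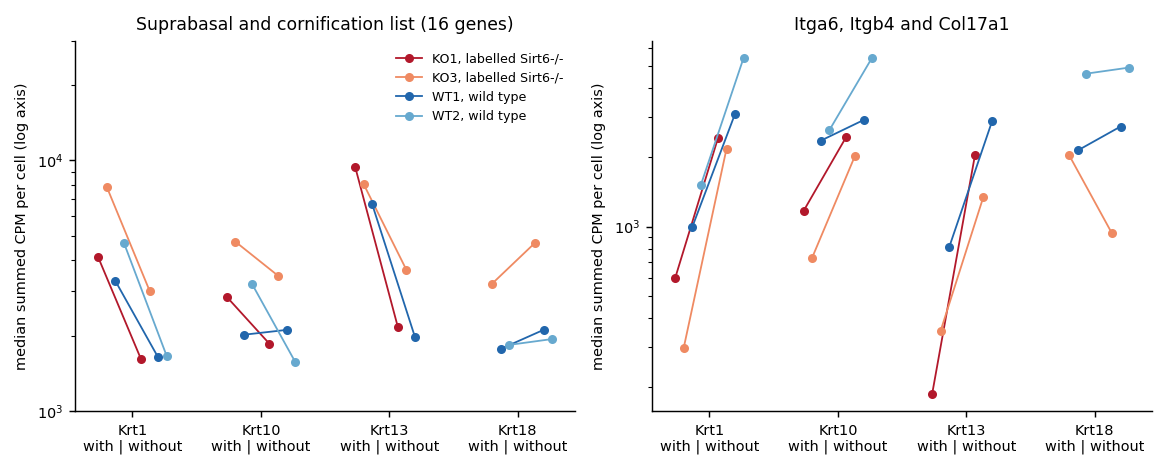
The median summed CPM per cell (log axis) is drawn for cells with a count of a keratin (left end of each line) and without (right end), for each mouse with at least 3 cells on both sides. Left panel, the 16-gene suprabasal and cornification list; right panel, Itga6, Itgb4 and Col17a1. The lines of Krt1 fall in the left panel and climb in the right panel in 4 of 4 mice. The set of the right panel was chosen after the low r of Col17a1 and Itgb4 to Krt1 was seen.

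Between the genotype labels the fixed lists around the members had no gene called by edgeR's quasi-likelihood test, and DESeq2 called genes in 1 of the 6 lists. Of the suprabasal and cornification list 14 of 16 genes passed the filter, 12 with a positive and 2 with a negative log2 difference (median 0.80), 2 at an unadjusted p under 0.05 and 2 called by DESeq2. In 6 of them both mice labelled Sirt6-/- were above both wild-type mice, and in 0 both were below. Over all genes tested, 49.3% had a positive log2 difference, 5.12% an unadjusted p under 0.05 and 0.911% a call by DESeq2, while 17.0% had both above and 18.7% both below; the lists that follow are read beside the same shares. Casp14, a protease of cornification, had 18.43 and 25.05 TMM-scaled CPM in KO1 and KO3, against 2.99 and 3.25 in WT1 and WT2 (log2 difference 2.80 with an SE of 0.39, adjusted p = 0.809 in edgeR and 2.04e-06 in DESeq2). Cnfn, a cornified envelope protein, had 11.95 and 62.77 CPM in KO1 and KO3, against 4.40 and 0 in WT1 and WT2. Dsg1a, a desmoglein of suprabasal cells, had 5.33 and 13.66 CPM in KO1 and KO3, against 9.60 and 54.50 in WT1 and WT2, and Lgals7, a galectin of stratified epithelia, had a log2 difference of -0.02. For Casp14 the groups did not overlap, while for Dsg1a WT2 alone was high, as it was for Krt1 and Krt10.

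Of the 7 basal and wound keratins, 3 had a positive and 4 a negative log2 difference (median -0.19), 2 at an unadjusted p under 0.05. Krt15, a keratin of basal and follicle stem cells, had 876.49 and 439.08 TMM-scaled CPM in KO1 and KO3, against 1493.26 and 1216.16 in WT1 and WT2. Krt5 had 4877.04 and 3837.96 in KO1 and KO3, against 6007.56 and 8765.46 in WT1 and WT2. Both were lower in each mouse labelled Sirt6-/- than in each wild-type mouse, as were 18.7% of all genes, and 0 of the 7 had both above. Their log2 differences were -1.04 and -0.76 (adjusted p = 0.965 and 0.962 in edgeR). The wound keratins Krt6b and Krt16 overlapped, at log2 differences of 0.94 and 0.69, with KO3 highest and WT2 lowest.

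Of 20 differentiation regulators, 10 had a positive and 10 a negative log2 difference (median 0.02), none at an unadjusted p under 0.05, with both mice labelled Sirt6-/- above in 2 and below in 3. Those named were Cebpa (0.64), Grhl1 (0.57), Cebpb (-0.67) and Trp63 (-0.61), transcription factors of the epidermis. Of 11 measured desmosomal and hemidesmosomal keratin anchors past the filter, 3 were positive and 8 negative (median -0.30), 1 at an unadjusted p under 0.05, with both above in 0 and below in 5. The desmoglein Dsg2 had 15.00 and 6.91 TMM-scaled CPM in KO1 and KO3, against 29.87 and 30.56 in WT1 and WT2 (log2 difference -1.46). The others named were the linker Plec (-0.73), the desmocollin Dsc2 (0.29) and the plakophilin Pkp1 (0.02).

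Of the list for the infundibulum and sebaceous duct, where Krt79 is known, 5 of 7 genes passed the filter, 4 positive and 1 negative (median 1.17), 1 at an unadjusted p under 0.05, with both above in 2 and below in 0. Cst6, a protease inhibitor of the follicle opening, had 13.10 and 17.48 TMM-scaled CPM in KO1 and KO3, against 6.04 and 5.62 in WT1 and WT2 (log2 difference 1.39). Atp6v1c2, a proton pump subunit, had 0.66 and 0.21 CPM in KO1 and KO3, against 0 and 0.19 in WT1 and WT2. Of the simple epithelium list 13 of 15 genes passed the filter, 5 positive and 8 negative (median -0.15), none at an unadjusted p under 0.05, with both above in 1 and below in 6. Those named were Lcn2 (1.18), a secreted siderophore-binding protein, the claudin Cldn4 (0.75), the epithelial factor Ehf (-2.02) and the claudin Cldn3 (-1.94). Ehf had 27.40 and 30.97 TMM-scaled CPM in KO1 and KO3, against 38.96 and 198.45 in WT1 and WT2, so WT2 was high here too.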

How the data were processed

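The data are single-cell Smart-seq2 libraries of 284 sorted tumour cells from 4 mice. The table deposited by the authors holds expected counts, estimated for each gene in each cell. The submitters' processing notes name STAR, RSEM and mm10 (GRCm38), without versions or settings. Of its values above 0, 21.5% were not whole numbers within 0.001. Symbols came from a table that matched 53857 of 54247 gene IDs; the rest held 0.606% of the counts. No cell was left out and no doublet caller was run, since 1 cell was sorted to a well.

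Counts were summed per mouse, rounded, scaled by TMM, filtered with filterByExpr and tested two-sided with edgeR 4.0.16 (glmQLFit, glmQLFTest; R 4.3.3) with Benjamini-Hochberg adjustment at 0.05. DESeq2 1.42.0 and limma 3.58.1 (voom, and means of log2(CPM + 1) per cell) were alternatives. P-values cover the spread between 2 mice per label only. Shares of cells have exact Clopper-Pearson 95% intervals; correlations used log2(CPM + 1) within a mouse. Motifs were matched to RefSeq promoters of GRCm38.p6.

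The members and lists were chosen with earlier results of these data known. All members are named; of each list, up to 2 genes per direction with the largest log2 difference past the filter; and the 3 genes most like each frequent member. Names outside this rule are said to be so.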

Additional observations from a re-analysis of the deposited data

How the results depend on the processing

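Of the log2 differences of single members under the alternatives, 99 kept their direction and side of the threshold, 11 reversed and 1 passed the threshold (Krt20 in DESeq2). With DESeq2, 1 member and 148 of all genes were called in place of 0 and 0, and with a filter of at least 10 CPM in 2 mice 1 gene of all was called. The difference in the members' share of keratin counts ran from -2.53 to 0.170 percentage points when 1 mouse was left out, and was 0.109 as a median over cells, an alternative chosen after seeing the data; it reversed without WT2. With the mean log2 value per cell, log2 differences were 0.50 for Krt1, 0.53 for Krt10 and -0.01 for Krt7. With limma-voom they were -0.91 for Krt7 and -1.60 for Krt19. Leaving out 1 mouse gave -2.22 to 0.13 for Krt1, -3.44 to 0.36 for Krt10, -0.10 to 6.39 for Krt13, -3.86 to 0.77 for Krt18, 0.20 to 11.67 for Krt4, -7.12 to 2.10 for Krt7 and -6.88 to 2.30 for Krt19. The ends 11.67, -7.12 and -6.88 come from fits with a label at 0 counts and are neither sizes nor bounds. The lone mouse of a label is then assumed to vary like the others. The cause of these shifts was not tested beyond the leading cells given above. Of the shares of cells, 111 stayed within their interval and 9 moved beyond it, all under a threshold of 10 counts or 10 CPM. No paired analysis was made, because nothing in the labels pairs a mouse labelled Sirt6-/- with a wild-type mouse.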
